A study of Mus musculus with 48 samples.

Results

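Interleukins are secreted proteins through which cells of the immune system and of barrier tissues signal to each other, and each acts through a receptor built of subunits. The probes described here were chosen by gene symbol. They are those whose annotated symbol begins with Il and a digit and names an interleukin, a subunit or accessory protein of an interleukin receptor, or a binding protein, without Il1b, Il7r and Il4i1. A probe was kept as a member when its detection p, the deposited p value against negative control beads, fell below 0.01 on no fewer than 4 of the 24 arrays that a time point has. Of 94 probes of 72 such genes on the array, 36 probes of 27 genes met this, 33 of them at 4 weeks and 35 at 16 weeks. In the whole series 12158 probes of 8900 genes met it. The member genes were 8 interleukins, 1 binding protein and 18 receptor genes, and 7 genes had more than 1 member probe. A further 45 genes had no member probe, among them Il4, Il5, Il6, Il10, Il13 and Il17a. At the threshold, 1 of the Il11ra2 probes (ILMN_1248616) was detected on 4 arrays at 4 weeks and is inside, and Il1f8 was detected on 3 arrays at 16 weeks and is outside.

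Whole lungs came from male mice of the inbred A/J strain, which is susceptible to lung tumours, and of C57BL/6J (B6), which is resistant, all bought at 4 weeks of age. Mice of each strain received GMA-SS (gas metal arc-stainless steel) fume, GMA-MS (gas metal arc-mild steel) fume or the PBS vehicle (sham). It was given in 4 pharyngeal aspirations, in which a liquid placed at the back of the throat is breathed in. The fume dose was about 5 mg/kg at each aspiration. Lungs were taken 4 weeks (28 days in the labels) or 16 weeks later, which gave 12 groups of 4 arrays, 48 in all. Sham mice shared the aspirations with the fume-exposed mice, and mice without any aspiration were not analysed here. Each beadchip, a slide of several arrays, held 1 array of each of the 6 groups of its time point, and the replicate number names it. The time points were on different beadchips, so time and beadchip cannot be told apart.

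Interleukin receptors fall into families. Cytokines of the IL-6 family signal through the shared subunit gp130, which Il6st encodes, and those of the IL-1 family, to which IL-18, IL-33 and IL-36 belong, use receptors with a cytoplasmic domain like that of Toll receptors. IL-15 and IL-7 maintain lymphocytes, IL-4 and IL-13 drive type 2 responses, and IL-17 acts on epithelium and fibroblasts. In the lung, epithelial cells hold IL-33 and IL-18 and release them on injury, and macrophages make IL-18 as well.

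The probe of Il6st differed most between the strains, and that of Il18 most among the members detected in both strains in sham lungs. The 250 bases before the start of each gene are shown as description, and their part in the strain differences was not tested. They come from RefSeq (GRCm38.p6, the C57BL/6J reference), and both genes matched by symbol. Capitals mark CCAAT and TATAAA, searched on both strands.
Il6st, chr13:112463820-112464069, plus strand: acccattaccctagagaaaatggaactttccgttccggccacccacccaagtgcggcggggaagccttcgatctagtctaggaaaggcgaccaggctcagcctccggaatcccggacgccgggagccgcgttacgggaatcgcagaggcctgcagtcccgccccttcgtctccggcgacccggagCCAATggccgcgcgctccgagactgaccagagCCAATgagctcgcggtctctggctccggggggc
Il18, chr9:50554450-50554699, plus strand: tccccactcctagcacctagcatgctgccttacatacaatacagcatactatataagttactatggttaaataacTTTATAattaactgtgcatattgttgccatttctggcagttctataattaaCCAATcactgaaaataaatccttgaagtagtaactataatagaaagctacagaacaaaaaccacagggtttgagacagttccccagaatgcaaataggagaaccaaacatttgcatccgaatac
The Il6st stretch was 66% G or C with 26 CG pairs, and both of its marked places are CCAAT. The Il18 stretch was 35.6% G or C with 1 CG pair, and its marked places are a TATAAA, read on the opposite strand, and a CCAAT. Of 32841 windows of this length in the RefSeq table, 33.9% held CCAAT and 12.4% TATAAA. TTCNNNGAA, a motif of STAT factors, was in 7.02% of the windows and in neither of these. The motifs were chosen after the sequences had been seen and describe reference letters only. The A/J letters were not analysed here.

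Arrays detected 9990 to 11421 probes at 4 weeks and 10594 to 11567 at 16 weeks, with 34 to 36 beads a probe at the median. Values below are normalized log2 intensities unless called raw, and differences are on the same scale. A probe was called at an adjusted p under 0.05 over all 11624 probes tested at 4 weeks or 11881 at 16 weeks (limma, Benjamini-Hochberg). The level of one probe cannot be set against that of another. The labels give replicates without naming animals, so the p values measure the spread between these samples, which may be technical. All 8 lung marker genes chosen for the check of the tissue were detected. At 4 weeks 23 of 33 member probes were detected on all 24 arrays, and at 16 weeks 25 of 35.

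In sham lungs 9 of 33 members differed between the strains at 4 weeks (27.3%), 4 higher and 5 lower in A/J, where 18.2% of all probes tested were called (8.59% higher, 9.62% lower). At 16 weeks 11 of 35 differed (31.4%), 6 higher and 5 lower in A/J, where 26.8% of all probes were called (14.4% higher, 12.4% lower). The counts of both times include Il6st, which met the detection rule only through B6 and had to differ. The sham arrays of the strains did not overlap for 9 members at 4 weeks (19.4% of all probes) and for 9 at 16 weeks (27% of all probes). The median difference of the members was 0.01 at 4 weeks and 0.00 at 16 weeks, and that of all probes 0.03 and 0.02. Among the ligands 3 of 8 were higher and 1 lower in A/J at 4 weeks, and 2 of 7 were higher and 2 lower at 16 weeks. Of the receptor probes 1 of 24 was higher and 4 were lower at 4 weeks, and 4 of 27 were higher and 3 lower at 16 weeks. With the beadchip as a block the 4-week count was 16 (48.5%; 9 higher, 7 lower), where 30.8% of all probes were called in that fit, and the 7 probes added were those of Il18r1, Il15, Il3ra, Il18bp, Il11ra2 (ILMN_1248616) and Il17re (ILMN_3162860 and ILMN_3163006). Scaling each array to its median over probes detected throughout, in place of quantile normalization, left 6 calls at 4 weeks (2 higher, 4 lower), with 7.58% of all probes called, and 7 at 16 weeks (2 higher, 5 lower), with 17.8% of all probes called, and moved the median of all probes at 16 weeks to -0.15.

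**Figure D1:**
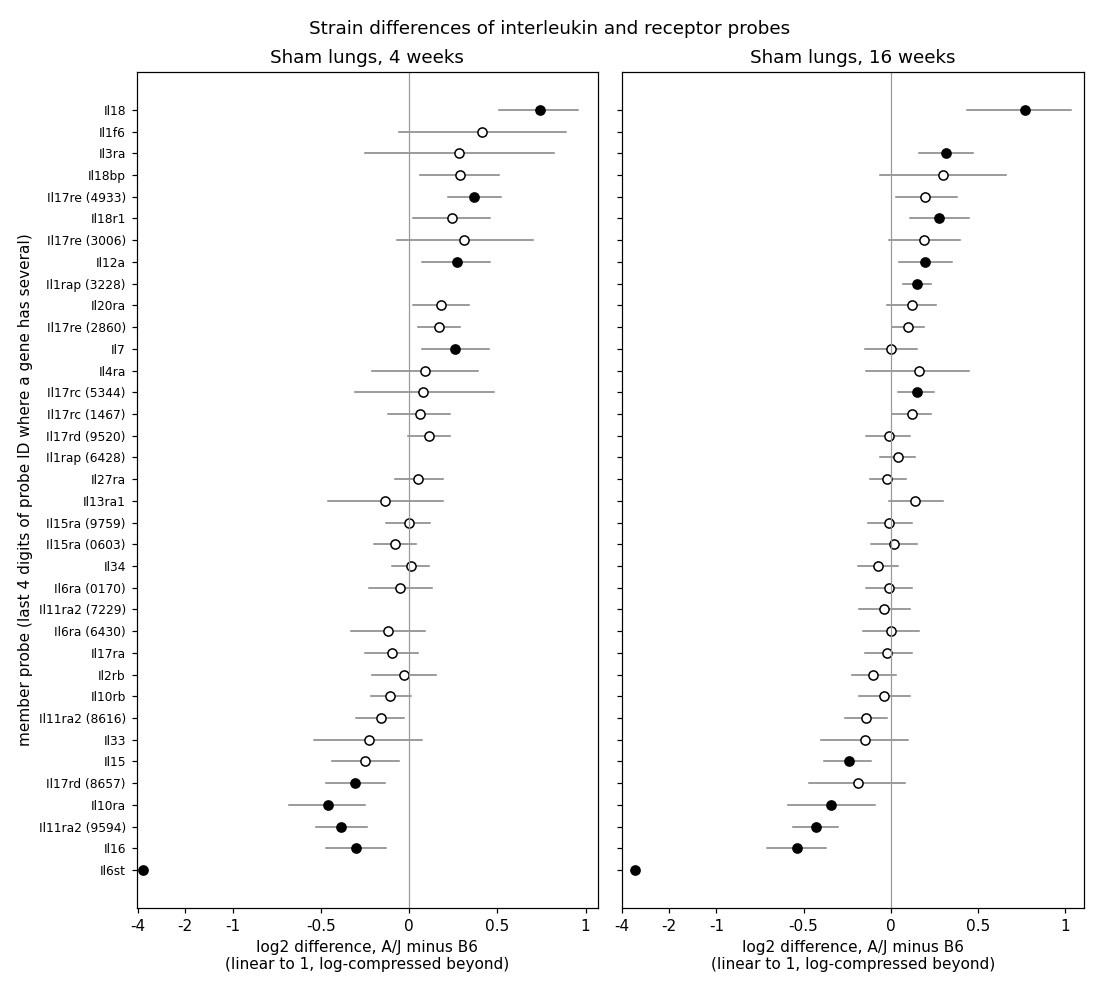
A/J minus B6 difference of each member probe in sham lungs, in log2 units, at 4 weeks (left) and 16 weeks (right), with 95% confidence intervals from the limma fit and filled points for called probes. Il6st lies at -3.69 and -3.32, and all other members lie between -0.54 and 0.77.

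Among the ligands, Il18, whose product is a pro-inflammatory cytokine made as an inactive precursor, was higher in A/J in sham and in fume-exposed lungs at both times. At 4 weeks it stood at 10.74, 10.74, 10.33 and 10.65 in A/J sham lungs, against 9.83, 10.06, 9.78 and 9.84 in B6 sham lungs. At 16 weeks it stood at 10.23, 10.07, 10.06 and 10.51 in A/J sham lungs, against 9.55, 9.29, 9.64 and 9.32 in B6 sham lungs. The strains did not overlap at either time. The difference was 0.74 (SE 0.11, adjusted p 2.35e-05, 1.67-fold) at 4 weeks and 0.77 (SE 0.16, adjusted p 7.00e-04, 1.70-fold) at 16 weeks. In fume-exposed lungs, averaged over both fumes, it was 0.81 (SE 0.08, adjusted p 1.72e-08) and 0.62 (SE 0.11, adjusted p 1.04e-04), again without overlap. Raw intensities at 4 weeks were 1280 to 1710 in A/J sham lungs, against 880 to 1060 in B6 sham lungs.

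Il18bp, a secreted protein that binds IL-18 and blocks it, had a difference of 0.29 at 4 weeks (95% confidence interval 0.06 to 0.51, adjusted p 0.0772) and of 0.30 at 16 weeks (-0.06 to 0.66, adjusted p 0.223). It was not called in either, and the value at 16 weeks was -0.06 under scaling to the median. The beadchip block called it in sham lungs at 4 weeks (adjusted p 0.0354) and in exposed lungs at 16 weeks (0.28, adjusted p 0.0483). Il18r1, the ligand-binding chain of the IL-18 receptor, stood at 12.59, 12.73, 12.35 and 12.58 in A/J sham lungs, against 12.28, 12.37, 12.17 and 12.30 in B6 sham lungs at 16 weeks. The difference was 0.28 (SE 0.08, adjusted p 0.0122), with B6 replicate 2 above A/J replicate 3, and without A/J sham replicate 2 it was 0.23 and not called (adjusted p 0.0571), nor was it under scaling to the median (0.19, adjusted p 0.157). At 4 weeks it was 0.24 and not called (adjusted p 0.146), and with the beadchip block it was called (adjusted p 1.88e-04). In fume-exposed lungs Il18r1 was higher in A/J by 0.26 (adjusted p 0.0123) at 4 weeks and 0.34 (adjusted p 5.32e-05) at 16 weeks, and the 4-week call was lost under scaling to the median (adjusted p 0.179). Il1rap, the accessory chain of the IL-1 and IL-33 receptors, was a member at 16 weeks only. Its probe ILMN_1243228 stood at 7.90, 7.94, 8.01 and 7.89 in A/J sham lungs, against 7.76, 7.81, 7.80 and 7.76 in B6 sham lungs. It was 0.15 higher (SE 0.04, adjusted p 0.00681) without overlap, but under scaling to the median the difference was -0.57 and not called (adjusted p 0.208). The other probe of Il1rap (ILMN_1226428), which no sham array detected, differed by 0.04.

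From a list of genes that process IL-1 family cytokines, 2 of 4 probes were higher in A/J sham lungs at 4 weeks and 1 of 6 at 16 weeks, and none was lower. The list medians were 0.22 and 0.14, against 0.03 and 0.02 over all probes. Casp1, the protease that cuts the IL-18 precursor, was 0.28 higher at 4 weeks (adjusted p 0.00918). Nlrc4, a sensor that activates it, was 0.29 higher at 4 weeks (adjusted p 0.00679) and 0.27 at 16 weeks (adjusted p 0.00917). Sigirr, which dampens IL-1 family receptors, was 0.23 higher at 16 weeks (adjusted p 0.00203). Several markers of macrophages and mast cells were higher in A/J as well. Of 4 macrophage probes 2 were called higher in A/J sham lungs at 4 weeks and 3 at 16 weeks, and none was called lower. Marco was at 1.17 and 0.82, and the lowest of the 4 probes was at -0.07 and -0.30. The summed level of the macrophage probes was 7510 to 8970 in A/J sham lungs, against 6010 to 6780 in B6 sham lungs, at 4 weeks. At 16 weeks it was 5720 to 6510 in A/J sham lungs, against 4580 to 7150 in B6 sham lungs. Of 4 mast cell probes 3 and 4 were higher, with Cpa3 at 0.85 and 0.49. In whole lung, fewer or more cells of a type and less or more RNA per cell cannot be told apart, and the part of these cells in the Il18 difference was not tested.

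Il16 encodes a chemoattractant for CD4 T cells, cut from a precursor that lymphocytes hold, and it was lower in A/J in all 4 strain comparisons. Its 4-week values were 10.74, 10.55, 10.81 and 10.76 in A/J sham lungs, against 10.97, 11.02, 11.04 and 11.05 in B6 sham lungs. Its 16-week values were 10.29, 10.47, 10.20 and 10.39 in A/J sham lungs, against 10.84, 10.87, 10.85 and 10.95 in B6 sham lungs. Every A/J sham array lay below every B6 sham array of its time point. The difference was -0.30 (SE 0.08, adjusted p 0.00959) at 4 weeks and -0.54 (SE 0.08, adjusted p 2.13e-05) at 16 weeks, and -0.30 in fume-exposed lungs at both times (adjusted p 2.75e-04 and 2.24e-04).

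Il10ra, the ligand-binding chain of the receptor for the anti-inflammatory IL-10, was lower in A/J in all 4 strain comparisons as well. It stood at 8.93, 8.56, 9.12 and 8.97 in A/J sham lungs, against 9.30, 9.36, 9.54 and 9.23 in B6 sham lungs at 4 weeks. At 16 weeks it stood at 8.51, 8.63, 8.31 and 8.57 in A/J sham lungs, against 8.76, 8.68, 9.12 and 8.81 in B6 sham lungs. The strains did not overlap, with a difference of -0.46 (SE 0.10, adjusted p 0.00235) at 4 weeks and -0.34 (SE 0.12, adjusted p 0.0370) at 16 weeks. The 4-week call was lost under scaling to the median (-0.48, adjusted p 0.126). The 16-week call was lost without the detection filter (adjusted p 0.0713), without A/J sham replicate 1 (0.0646) or 3 (0.118), and without B6 sham replicate 3 (0.148) or 4 (0.0588). In fume-exposed lungs the difference was -0.39 (adjusted p 2.64e-04) and -0.33 (adjusted p 0.00321). Il10rb, the signalling chain that IL-10 shares with other cytokines, lay between -0.11 and 0.02 and was not called in any strain comparison.

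Markers of B cells moved with Il16 and Il10ra. Of 6 B cell probes 4 were lower in A/J sham lungs at each time and none higher, with medians of -0.63, and Cd79a, a chain of the B cell receptor, was at -1.03 and -1.04. The summed level of the list was 2820 to 6610 in A/J sham lungs, against 7320 to 8510 in B6 sham lungs, at 4 weeks, and 3120 to 4800, against 6340 to 7360, at 16 weeks. Of 7 T and NK cell probes 2 were lower in A/J sham lungs at 4 weeks (Klrd1 at -0.82 and Nkg7 at -0.66 by ILMN_1217855). The other Nkg7 probe (ILMN_2770786) was not called there. No probe of this list was called in sham lungs at 16 weeks, and Cd4 was not detected. In exposed lungs 4 of the 7 were lower in A/J at 4 weeks and none higher. At 16 weeks 2 were higher there (Cd3e at 0.36 and Cd3g at 0.23) and none lower. The part of these cells in the differences of Il16 and Il10ra was not tested.

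Il15, which sustains NK cells and memory CD8 T cells, was lower in A/J sham lungs at 16 weeks. It stood there at 8.90, 8.90, 8.88 and 8.89 in A/J sham lungs, against 9.27, 8.95, 9.15 and 9.17 in B6 sham lungs. The difference was -0.24 (SE 0.07, adjusted p 0.00787) without overlap, and the 4 A/J arrays ran only from 8.88 to 8.90. At 4 weeks it was -0.25 and not called (adjusted p 0.0705), although the strains did not overlap, and with the beadchip block it was called (adjusted p 0.00162). In fume-exposed lungs it was -0.25 (adjusted p 0.00637, and 0.0748 under scaling to the median) at 4 weeks and -0.17 (adjusted p 0.00544) at 16 weeks. Both member probes of Il15ra, which presents IL-15 to neighbouring cells, lay between -0.08 and 0.07 and were not called in any strain comparison. Il2rb, the signalling chain that IL-2 and IL-15 share, was lower in A/J in fume-exposed lungs at 4 weeks (-0.19, SE 0.06, adjusted p 0.0249) and was not called in the other strain comparisons. That call was lost without A/J GMA-SS replicate 1 (adjusted p 0.0581) or 3 (0.0585), A/J GMA-MS replicate 3 (0.0593), B6 GMA-SS replicate 2 (0.0617) or B6 GMA-MS replicate 2 (0.0527), and under scaling to the median (0.738).

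Il7, a growth factor of lymphocytes, was higher in A/J in sham lungs at 4 weeks and was not called in the other strain comparisons. It stood there at 8.93, 9.02, 8.68 and 9.07 in A/J sham lungs, against 8.56, 8.70, 8.59 and 8.81 in B6 sham lungs. The difference was 0.26 (SE 0.09, adjusted p 0.0474), and A/J replicate 3 lay inside the B6 range. The call was lost in 6 of 8 fits without 1 sham array, those without A/J replicate 1 (adjusted p 0.0890), 2 (0.126) or 4 (0.160) or B6 replicate 1 (0.136), 2 (0.0681) or 3 (0.126). It was also lost without the detection filter (adjusted p 0.0714), with only the compared groups (0.137), under scaling to the median (0.961) and with the squamous covariate (0.0538). At 16 weeks the difference was 0.00 (95% confidence interval -0.15 to 0.15).

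Il12a encodes the p35 chain of IL-12 and IL-35, and it was higher in A/J in all 4 strain comparisons, except that the 16-week sham difference was -0.05 under scaling to the median (adjusted p 0.720). It stood at 8.75, 8.95, 9.07 and 8.93 in A/J sham lungs, against 8.60, 8.49, 8.98 and 8.57 in B6 sham lungs at 4 weeks. At 16 weeks it stood at 8.46, 8.68, 8.52 and 8.45 in A/J sham lungs, against 8.28, 8.38, 8.17 and 8.46 in B6 sham lungs. The strains overlapped at both times. The difference was 0.27 (SE 0.09, adjusted p 0.0492) at 4 weeks and 0.20 (SE 0.07, adjusted p 0.0413) at 16 weeks. The 4-week call was lost without A/J sham replicate 2 (adjusted p 0.0938), 3 (0.155) or 4 (0.0882) or B6 sham replicate 1 (0.119), 2 (0.168) or 4 (0.133), and also without the detection filter (0.0759), with only the compared groups (0.193), under scaling to the median (0.12, adjusted p 1) and with a variance trend (0.0514). The 16-week call was lost without A/J sham replicate 2 (adjusted p 0.157) or 3 (0.0640) or B6 sham replicate 1 (0.0988) or 3 (0.152), and also without the detection filter (0.0644) or with only the compared groups (0.0891). In fume-exposed lungs, with 8 arrays a strain, the difference was 0.27 (SE 0.07, adjusted p 0.00334) and 0.23 (SE 0.05, adjusted p 0.00110). No array left out ended those calls, but scaling to the median ended both (0.26, adjusted p 0.207, and 0.10, adjusted p 0.355).

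Il33, an alarmin held in the nuclei of epithelial and endothelial cells, was lower in A/J in fume-exposed lungs at both times and was not called in sham lungs. At 4 weeks it stood at 12.46, 12.93, 12.49 and 12.58 in A/J GMA-SS lungs, against 13.17, 13.17, 12.90 and 13.20 in B6 GMA-SS lungs. It stood at 12.16, 12.83, 12.41 and 12.49 in A/J GMA-MS lungs, against 12.68, 12.92, 12.80 and 12.91 in B6 GMA-MS lungs. A/J GMA-SS replicate 2 and A/J GMA-MS replicate 2 reached into the B6 range. The difference over both fumes was -0.42 (SE 0.10, adjusted p 0.00302) at 4 weeks and -0.30 (SE 0.09, adjusted p 0.00868) at 16 weeks. In sham lungs it was -0.23 (95% confidence interval -0.54 to 0.07) and -0.15 (-0.40 to 0.10). The strain gap of exposed lungs is not shown to differ from that of sham lungs, since the tests of that difference gave -0.26 for GMA-SS and -0.12 for GMA-MS at 4 weeks and -0.07 and -0.22 at 16 weeks, none of them called. Of 6 neutrophil probes 5 were lower in A/J exposed lungs at 16 weeks and none higher (median -0.83). At 4 weeks 1 of them was lower in A/J exposed lungs and none higher (median -0.03). The part of neutrophils in the difference of Il33 was not tested. Il34, a ligand of the macrophage growth factor receptor, lay between -0.07 and 0.02 in the strain comparisons and was called in none.

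Il1f6, the gene of IL-36 alpha, a cytokine of stratified epithelia, was a member at 4 weeks only, where 8 of 24 arrays detected it. In exposed lungs it stood at 7.97, 8.28, 8.50 and 8.10 in A/J GMA-SS lungs, against 7.42, 7.39, 7.41 and 7.53 in B6 GMA-SS lungs. It stood at 7.39, 8.24, 8.26 and 7.83 in A/J GMA-MS lungs, against 7.85, 7.40, 7.39 and 7.43 in B6 GMA-MS lungs. All A/J GMA-SS arrays lay above every B6 GMA-MS and GMA-SS array, and A/J GMA-MS replicates 1 and 4 did not. No exposed B6 array detected the probe, while 5 exposed A/J arrays did, and 7 of its 8 detections were in A/J, so its entry favoured a higher A/J value. It was at least 1.25-fold higher in exposed A/J lungs, with measured means of 8.07 in A/J and 7.48 in B6 and an adjusted p of 0.00681 in the fit, a call that scaling to the median ended (adjusted p 0.625). In sham lungs it was 0.41 and not called (adjusted p 0.261), with A/J at 8.75, 8.45, 7.73 and 7.41 and B6 at 7.72, 7.96, 7.43 and 7.57, and without A/J sham replicate 4 it was 0.64 and called (adjusted p 0.0448).

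A list of squamous epithelial genes, from the lining of the throat and esophagus rather than of the alveoli, moved with Il1f6. In exposed lungs at 4 weeks 7 of 11 squamous probes were higher in A/J and none lower, with a median of 1.91. Their summed level was 68800 to 106000 in A/J GMA-SS lungs, against 2910 to 42200 in B6 GMA-SS lungs, and 2730 to 78700 in A/J GMA-MS lungs, against 2740 to 93300 in B6 GMA-MS lungs. The part of this tissue in the difference of Il1f6 was not tested. The squamous level itself differed between the strains on these arrays, so a covariate fit cannot tell squamous tissue and strain apart. With the median squamous level as a covariate the fitted value of Il1f6 was 0.25 and not called (adjusted p 0.172), and that of Il2rb was -0.14 and not called (adjusted p 0.184). With this covariate 11 members were called in exposed lungs at 4 weeks (33.3%), where 24.4% of all probes were called in that fit.

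**Figure D2:**
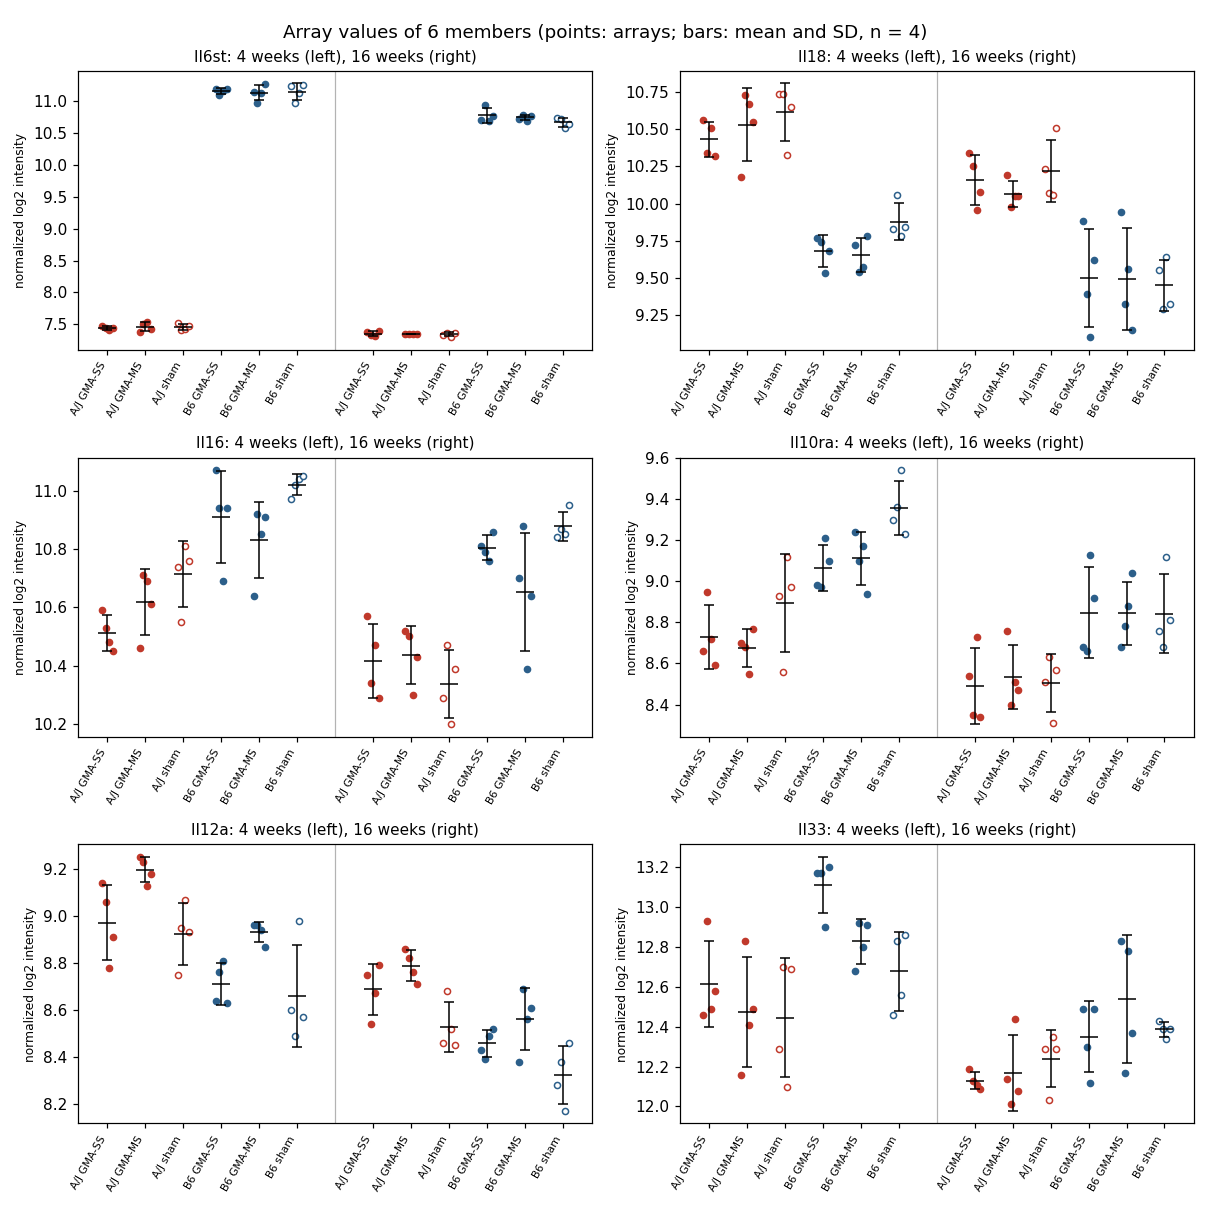
Normalized log2 intensity of 6 members on every array, by strain and exposure, at 4 weeks (left of each panel) and 16 weeks (right). Points are arrays (open for sham), bars give mean and SD (n = 4), and all A/J arrays of Il6st lie between 7.30 and 7.54 while all B6 arrays lie between 10.57 and 11.26.

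Among the receptors, Il6st was the member with the largest strain difference in each of the 4 strain comparisons. Its 4-week values were 7.52, 7.41, 7.43 and 7.48 in A/J sham lungs, against 11.23, 10.97, 11.13 and 11.25 in B6 sham lungs. Its 16-week values were 7.34, 7.37, 7.30 and 7.36 in A/J sham lungs, against 10.73, 10.71, 10.57 and 10.64 in B6 sham lungs. No A/J array of either time detected the probe, and all B6 arrays did, so it met the detection rule only through B6 and had to differ. It was at least 10.3-fold lower in A/J sham lungs at 4 weeks and at least 8.12-fold lower at 16 weeks, counted against the dimmest signal well above background, with fitted differences of -3.69 (SE 0.06, adjusted p 2.32e-21) and -3.32 (SE 0.05, adjusted p 8.34e-23). Raw intensities in sham lungs at 4 weeks were 169 to 184 in A/J and 2010 to 2440 in B6. In exposed lungs it was at least 10.3-fold lower at 4 weeks and at least 8.57-fold lower at 16 weeks. The array has 1 probe of Il6st, and less transcript in A/J and weaker binding of the A/J transcript by this probe cannot be told apart.

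Other parts of the gp130 family differed less. Il6ra, which binds IL-6 and hands it to gp130, had 2 member probes between -0.15 and 0.07. One of them (ILMN_2706430) was called in fume-exposed lungs at 16 weeks (-0.15, adjusted p 0.0274), and not without A/J GMA-SS replicate 1 (adjusted p 0.0657), A/J GMA-MS replicate 1 (0.0545), B6 GMA-SS replicate 2 (0.0528) or 3 (0.0663), or B6 GMA-MS replicate 4 (0.0510), or with only the compared groups (0.0551). Il11ra2, one of the mouse genes for the IL-11 receptor, was lower in A/J in all 4 strain comparisons by ILMN_2619594, 1 of its 3 member probes. In sham lungs this probe stood at 12.85, 12.61, 12.71 and 12.67 in A/J sham lungs, against 13.16, 13.01, 13.17 and 13.05 in B6 sham lungs at 4 weeks. The difference was -0.39 (SE 0.07, adjusted p 2.66e-04) there and -0.43 (SE 0.06, adjusted p 1.49e-05) at 16 weeks, without overlap. The other 2 probes lay between -0.18 and -0.04. ILMN_1248616 met the detection rule at 4 weeks only through 4 B6 arrays, so a lower A/J value was favoured, and it was at least 1.06-fold lower in A/J sham lungs and at least 1.07-fold lower in A/J exposed lungs there. Its calls in exposed lungs (adjusted p 0.00572 at 4 weeks, and -0.15 with adjusted p 0.00724 at 16 weeks) were lost under scaling to the median (0.89 and 0.435), and in sham lungs it was called at 4 weeks with the beadchip block alone (0.0354). ILMN_1237229 was called in exposed lungs at 16 weeks (-0.13, adjusted p 0.0396), and 10 of 16 fits without 1 array lost that call (adjusted p 0.0538 to 0.0902), as did the fits without the detection filter (0.0593) and with scaling to the median (0.372). Il11ra2 has a near-identical copy in the mouse genome, so these values may include its transcript. Il27ra, a receptor that pairs with gp130, lay between -0.02 and 0.05 and was not called. Of 10 probes of partner receptors and cytokines without an Il symbol, 1 was higher and 1 lower in A/J sham lungs at 4 weeks, and 2 were higher and 2 lower at 16 weeks. Cntfr, which also signals through gp130, was at -0.35 (adjusted p 1.65e-04) and -0.38 (adjusted p 5.58e-08), and Ctf1, a cytokine of the family, was at -0.37 at 16 weeks (adjusted p 5.28e-05).

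Il3ra, the ligand-binding chain of the IL-3 receptor, was higher in A/J at 16 weeks. It stood at 9.77, 9.74, 9.74 and 9.59 in A/J sham lungs, against 9.42, 9.37, 9.40 and 9.39 in B6 sham lungs. The difference was 0.32 (SE 0.07, adjusted p 0.00254) without overlap, and 0.39 (SE 0.05, adjusted p 3.24e-06) in fume-exposed lungs. At 4 weeks, where the beadchips stood apart for this probe, it was 0.28 (95% confidence interval -0.25 to 0.82) and not called (adjusted p 0.562), while A/J was higher than B6 on 4 of 4 beadchips and the fit with the beadchip block called it (adjusted p 0.00451), as it did in exposed lungs at 4 weeks (0.24, adjusted p 7.15e-04). Csf2rb2, a beta chain that pairs with Il3ra in mice, was higher in A/J sham lungs by 0.52 (adjusted p 3.66e-06) and 0.38 (adjusted p 2.77e-04). Il4ra and Il13ra1, which form the receptor of IL-4 and IL-13, lay between -0.14 and 0.16 and were not called in any strain comparison, nor was Il20ra.

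IL-17 receptor genes gave 7 member probes whose calls differed within a gene. Il17re, a receptor for IL-17C on epithelium, was higher in A/J sham lungs at 4 weeks by ILMN_2634933, which stood at 10.43, 10.21, 10.38 and 10.47 in A/J sham lungs, against 9.86, 10.04, 10.10 and 10.02 in B6 sham lungs. The difference was 0.37 (SE 0.07, adjusted p 7.35e-04) without overlap, 0.20 at 16 weeks and not called (adjusted p 0.0858, and 0.0482 with the beadchip block), and 0.23 in exposed lungs at both times (adjusted p 0.00114 and 0.00466). ILMN_3163006 was called in exposed lungs at 16 weeks (0.30, adjusted p 0.00153), and so was ILMN_3162860 (0.11, adjusted p 0.00721), whose difference was -0.04 under scaling to the median. With the beadchip block ILMN_3163006 was also called in sham lungs at 4 weeks (0.31, adjusted p 6.15e-04) and 16 weeks (0.19, adjusted p 0.0451) and in exposed lungs at 4 weeks (0.23, adjusted p 2.48e-04), and ILMN_3162860 in sham lungs at 4 weeks (0.17, adjusted p 0.0113). Il17rd, which modulates IL-17 and growth factor signals, was lower in A/J sham lungs at 4 weeks by ILMN_1248657, which stood at 10.48, 10.67, 10.62 and 10.77 in A/J sham lungs, against 10.94, 10.82, 10.88 and 11.13 in B6 sham lungs. The difference was -0.31 (SE 0.08, adjusted p 0.00828) without overlap, and the call was lost with only the compared groups (0.0601). In exposed lungs at 4 weeks it was -0.13 and called with the beadchip block alone (adjusted p 0.0426). Its other probe, ILMN_2649520, was higher in exposed lungs at 16 weeks (0.11, adjusted p 0.0445), but it was -0.04 under scaling to the median, and 11 of 16 fits without 1 array lost the call (adjusted p 0.0621 to 0.111), as did the fits without the detection filter (0.0607) and with only the compared groups (0.0773). Il17rc, which pairs with Il17ra, was 0.15 higher in A/J sham lungs at 16 weeks by ILMN_2695344 (SE 0.05, adjusted p 0.0335) and -0.15 under scaling to the median. That call was lost without A/J sham replicate 3 (adjusted p 0.0920) or 4 (0.104) or B6 sham replicate 1 (0.111) or 4 (0.113), and with only the compared groups (0.107). Il17ra lay between -0.11 and -0.02 and was called with the beadchip block alone, in exposed lungs at 4 weeks (-0.11, adjusted p 0.0421).

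The strain comparison was repeated in fume-exposed lungs, which share no array with the sham lungs. At 4 weeks 13 of 33 members differed (39.4%, 5 higher and 8 lower in A/J), where 30.9% of all probes were called (15.4% higher, 15.5% lower). At 16 weeks 18 of 35 differed (51.4%, 9 higher and 9 lower), where 37.9% of all probes were called (20.9% higher, 17% lower). The 8 exposed arrays of each strain did not overlap for 4 members at 4 weeks (11.4% of all probes) and for 6 at 16 weeks (14.5%). With the beadchip block 17 members were called at 4 weeks (51.5%, against 45.6% of all probes) and 19 at 16 weeks (54.3%, against 45%). Scaling to the median left 7 calls at 4 weeks (21.2%, against 15.4% of all probes; 2 higher, 5 lower) and 12 at 16 weeks (34.3%, against 22.9%). Of the 9 sham calls at 4 weeks 7 were called in exposed lungs too, and of the 11 at 16 weeks 10 were. The 6 probes called in both sham comparisons were called in all 4 strain comparisons of the quantile-normalized values, 2 of them higher in A/J (Il18 and, except for its 16-week sham value under scaling to the median, Il12a) and 4 lower (Il6st, Il11ra2 by ILMN_2619594, Il16 and Il10ra). Il6st is in all of these counts, and its calls were fixed by the detection rule, which it met only through B6. In all, 23 probes were called in at least 1 strain comparison, and none had calls of opposite sign. The shares of all probes that repeat in this way are not given, so these counts are not shown to be particular to the members.

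**Figure D3:**
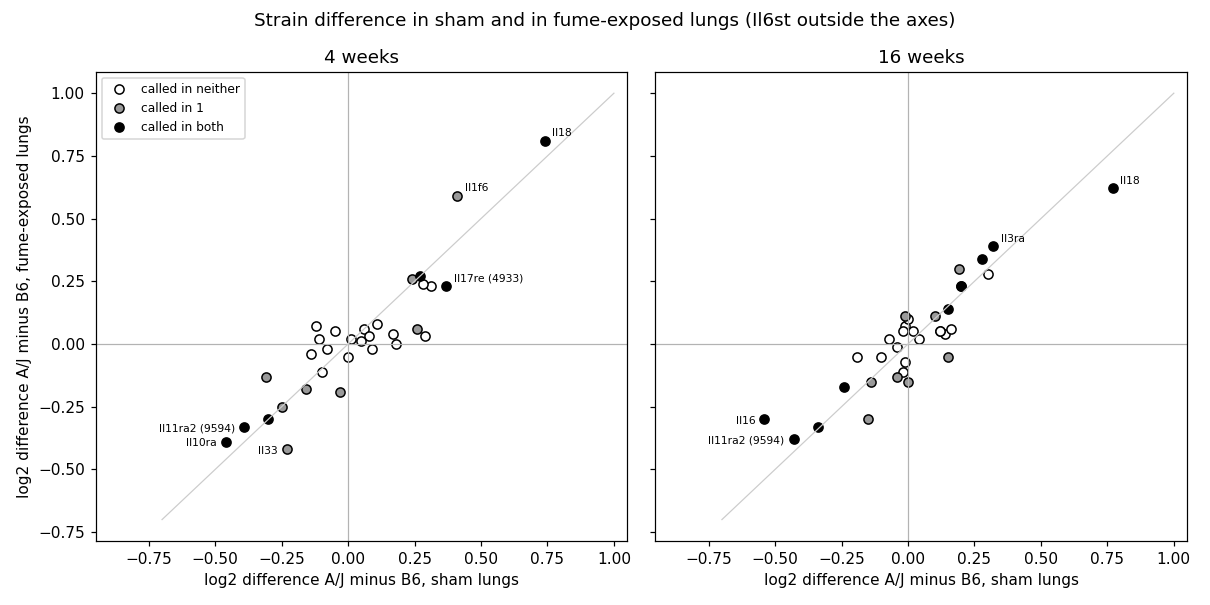
A/J minus B6 difference of each member in fume-exposed lungs (vertical) against that in sham lungs (horizontal), in log2 units, at 4 weeks (left) and 16 weeks (right), with the line of equal values. Black points were called in both, grey in 1 and open in neither, Il18 lies farthest right at 0.74 and 0.77, and Il6st is outside the axes.

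The strain difference of sham lungs at 16 weeks minus that at 4 weeks was called for none of 36 members (limma), where 0.0165% of 12158 probes were called. At an unadjusted p under 0.05 there were 3 (4.41% of all probes), with values of 0.19 for Il6st (adjusted p 0.890), -0.25 for Il16 (adjusted p 1) and -0.25 for Il7 (adjusted p 1). No A/J array detected Il6st at either time, so its strain difference is a lower bound at both. Its value here therefore does not measure a change of the strain gap.

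Fume exposure changed no member past the threshold in limma. At 4 weeks 0 of 33 members were called for GMA-SS against sham in A/J, where 0.249% of all probes were, 0 for GMA-MS in A/J (0.12% of all probes), 0 for GMA-SS in B6 (0.0602%) and 0 for GMA-MS in B6 (0.0516%). At 16 weeks 0 of 35 were called for GMA-SS in A/J (0.404% of all probes), GMA-MS in A/J (0.0168%), GMA-SS in B6 (0%) and GMA-MS in B6 (0.16%). At an unadjusted p under 0.05 there were 3 members for GMA-SS (5.2% of all probes) and 6 for GMA-MS (7.11%) in A/J at 4 weeks, and 2 for GMA-SS (3.63%) and 5 for GMA-MS (3.79%) in B6. At 16 weeks there were 3 for GMA-SS (6.39%) and 2 for GMA-MS (8.1%) in A/J, and 1 for GMA-SS (4.01%) and 3 for GMA-MS (9.63%) in B6. The 95% confidence intervals of all fume effects on members lay within -0.70 and 0.73 at 4 weeks and within -0.47 and 0.53 at 16 weeks. Larger effects are outside the intervals for probes detected in the groups compared. In A/J lungs no array detected Il6st at either time, nor Il11ra2 by ILMN_1248616 at 4 weeks. There the intervals describe background signal and do not bound a change of transcript.

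GMA-SS against GMA-MS gave 0 calls among the members as well. All probes had 0% called at 4 weeks in both strains, 0.185% in A/J at 16 weeks and 0.0758% in B6 at 16 weeks, and at an unadjusted p under 0.05 there were 4 members in A/J (6.02% of all probes) and 1 in B6 (3.02%) at 4 weeks, and 1 in A/J (4.99%) and 0 in B6 (5.03%) at 16 weeks. The difference between A/J and B6 in a fume effect was called for 0 members. All probes had 0% called for GMA-SS and 0.0258% for GMA-MS at 4 weeks, and 0.0421% and 0.101% at 16 weeks, and the members at an unadjusted p under 0.05 numbered 0 for GMA-SS (1.81% of all probes) and 3 for GMA-MS (4.55%) at 4 weeks, and 2 for GMA-SS (3.58%) and 3 for GMA-MS (7.13%) at 16 weeks. Of these, Il16 had a GMA-MS effect 0.33 higher in A/J at 16 weeks (adjusted p 0.543), and Il18bp one of -0.39 at 4 weeks (adjusted p 1).

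Il12a was the member with an unadjusted p under 0.05 in most fume comparisons, 5 of 8, among them all 4 with GMA-MS, and none passed the adjustment. At 4 weeks it stood at 9.25, 9.23, 9.13 and 9.18 in A/J GMA-MS lungs, against 8.75, 8.95, 9.07 and 8.93 in A/J sham lungs. In B6 it stood at 8.96, 8.96, 8.94 and 8.87 in GMA-MS lungs, against 8.60, 8.49, 8.98 and 8.57 in sham lungs. The A/J groups did not overlap, and B6 sham replicate 3 lay above all B6 GMA-MS arrays. The difference was 0.27 in each strain (adjusted p 0.411 in A/J and 0.841 in B6). At 16 weeks it was 0.26 in A/J (adjusted p 0.246) and 0.24 in B6 (adjusted p 0.231). Over the alternatives the 4 values ran from 0.12 to 0.30, with adjusted p of 0.124 or more. With GMA-SS the difference was 0.05 in both strains at 4 weeks, and 0.16 in A/J and 0.14 in B6 at 16 weeks. Comparisons of GMA-SS and of GMA-MS share the sham arrays of their strain.

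**Figure D4:**
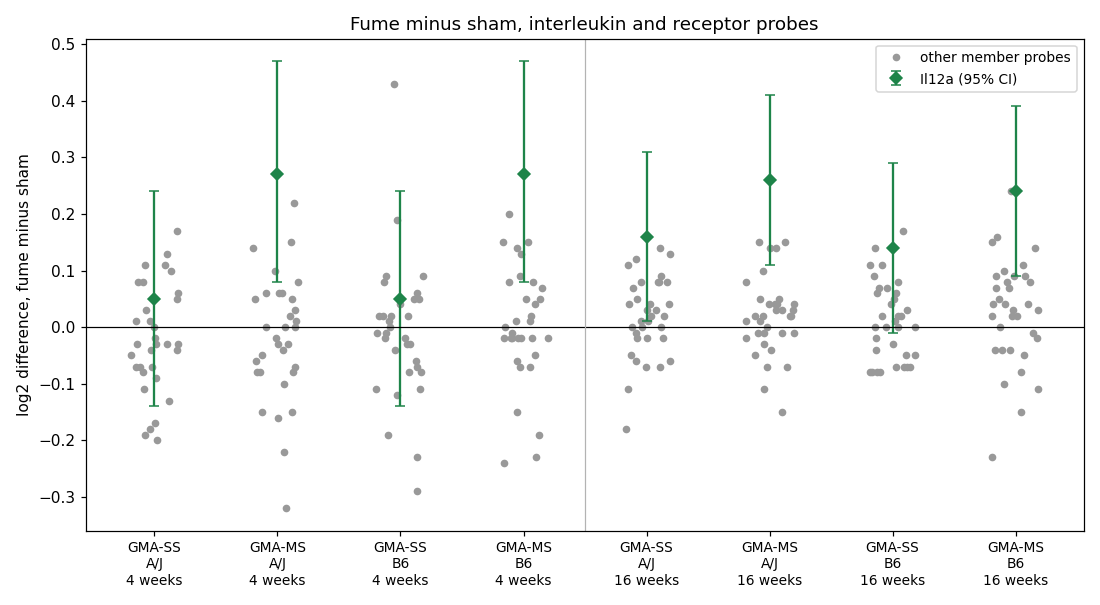
Fume minus sham difference of each member probe, in log2 units, for the 8 fume comparisons, with Il12a as diamonds with 95% confidence intervals and the other probes in grey. None was called, and Il12a lies at 0.24 to 0.27 in the 4 GMA-MS comparisons.

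Other leading members of the fume comparisons were not called either. Il33 stood at 13.17, 13.17, 12.90 and 13.20 in B6 GMA-SS lungs at 4 weeks, against 12.46, 12.83, 12.56 and 12.86 in B6 sham lungs, without overlap. The difference was 0.43 (95% confidence interval 0.13 to 0.73, adjusted p 1, and 0.0786 or more over the alternatives). Il18bp stood at 8.40, 8.48, 8.41 and 8.32 in A/J GMA-MS lungs at 4 weeks, against 8.96, 8.59, 8.66 and 8.67 in A/J sham lungs, a difference of -0.32 (adjusted p 0.426). Il10ra had differences of -0.29 with GMA-SS and -0.24 with GMA-MS in B6 at 4 weeks (adjusted p 1 for each). In A/J with GMA-SS, Il16 was at -0.20 at 4 weeks (adjusted p 0.719) and Il17re (ILMN_2634933) at -0.19 (adjusted p 0.613), and Il17rc (ILMN_2695344) was at -0.18 at 16 weeks (adjusted p 0.237). Il18 stood at 9.77, 9.74, 9.53 and 9.68 in B6 GMA-SS lungs and at 9.72, 9.54, 9.57 and 9.78 in B6 GMA-MS lungs at 4 weeks, against 9.83, 10.06, 9.78 and 9.84 in B6 sham lungs. Neither fume group overlapped the sham group, with differences of -0.19 for GMA-SS (95% confidence interval -0.42 to 0.03, adjusted p 1) and -0.23 for GMA-MS (-0.45 to 0.00, adjusted p 1). In A/J the differences of Il18 lay between -0.18 and -0.06, with intervals that included 0.

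The genes that carry interleukin signals inside the cell were taken from a list of transducers and a list of feedback inhibitors. Of the transducers 1 of 26 probes was higher and 1 lower in A/J sham lungs at 4 weeks, and 3 of 27 were higher and 2 lower at 16 weeks. Traf6, the adaptor through which IL-1, IL-18, IL-33 and IL-17 receptors signal, was at -2.37 (SE 0.09, adjusted p 1.17e-15) and -2.31 (SE 0.07, adjusted p 2.83e-17) by 1 probe, with the limit given for Il6st. Jak1, a kinase of gp130 and of the receptors of IL-2 and IL-4, was 0.51 higher at both times (adjusted p 0.00102 and 1.60e-06). Irak3, an inhibitor of IL-1 receptor signals, was at -0.39 at 16 weeks (adjusted p 0.00393), where Jak2 was at 0.20 and Tollip at 0.21. Of 13 feedback inhibitor probes 2 were lower at 4 weeks (Cish at -0.26 and Ptpn6 at -0.45) and 2 higher at 16 weeks (Ptpn11 at 0.37 and Socs3 at 0.30). The medians of these lists lay between -0.05 and 0.02, near those of all probes, and no probe of them was called in a fume comparison.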

How the data were processed

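Expression in RNA of 48 whole lungs was read on MouseRef-8 v1.1 beadchips of Illumina. The authors exported mean bead intensity and a detection p value per probe from BeadStudio without normalizing them. The deposited table also holds the bead number of each probe (an other value, used for quality only). They also deposited log2 values made in lumi (force-positive background, variance stabilization and robust spline within a time point), which served as an alternative. Intensities of 4 probe IDs listed more than once were averaged, leaving 24613 probes. Background correction and quantile normalization within a time point used neqc of limma 3.58.1 (R 4.3.3, statmod 1.5.0, offset 16), which infers its negative controls from those p values. Both times were normalized together for differences between them. All probes with detection p under 0.01 in at least 4 arrays were fitted with 6 groups (12 for differences between times), and p values were adjusted by Benjamini-Hochberg over all probes of a comparison. Groups came from the sample labels. Probe genes came from the platform annotation, updated by Entrez ID.

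Named with values were all members called in any comparison, the 8 with the largest strain difference in sham lungs at each time, and the 2 leading members of each fume comparison. Members, gene lists and tests were chosen with earlier results of these data known. Summed levels of a list add normalized intensities. Alternatives were the deposited values, no background correction, scaling to the median, no detection filter, a stricter one, 1 probe per gene, a trend with robust variance, only the compared groups, the squamous level as a covariate, the beadchip as a block, and each array left out in turn. The labels name the beadchip. The mean correlation of the deviations of arrays on 1 beadchip was 0.261, 0.424, 0.354 and 0.321 at 4 weeks, against -0.115 between beadchips, and 0.0552, 0.212, 0.166 and 0.0694 at 16 weeks, against -0.042. The code was tested on simulated data. Plots used matplotlib 3.10.9 (Python 3.11.15).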

Additional observations from a re-analysis of the deposited data

Results flagged for a closer look

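In each group of 4 arrays the highest or lowest value of a member was set against Dixon's 95% critical value. A first pass, over the sham groups of called sham strain differences only, gave no flag. The scope was then widened to all members in 408 groups, of which 10 had an array apart from the other 3. Chance alone flags about 1 in 20 groups, so this number is below that. The flags include probes called between the strains in exposed lungs, those of Il33 and Il1f6 at 4 weeks and of Il6ra, Il17rd and Il17re at 16 weeks. All flags are given as values, and no cause was tested.

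At 4 weeks Il20ra was at 8.51 in B6 GMA-MS replicate 2, against 8.81 to 8.83 in the other arrays of the group. Il1f6 was at 7.85 in B6 GMA-MS replicate 1, against 7.39 to 7.43. Il33 was at 12.90 in B6 GMA-SS replicate 3, against 13.17 to 13.20, so that array lay nearest to the sham arrays in the largest fume difference among the members. Il18bp was at 8.93 in A/J GMA-SS replicate 2, against 8.52 to 8.59.

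At 16 weeks 3 of the flags were in B6 sham lungs. There Il1rap (ILMN_1226428) was at 7.70 in replicate 2, against 7.65 to 7.66, Il6ra (ILMN_2706430) at 8.25 in replicate 2, against 8.19, and Il17re (ILMN_3163006) at 9.92 in replicate 3, against 9.74 to 9.76. In A/J sham lungs Il17rd (ILMN_2649520) was at 7.89 in replicate 2, against 8.02 to 8.03. In exposed lungs Il6ra (ILMN_2706430) was at 7.95 in A/J GMA-SS replicate 1, against 8.24 to 8.28, and Il17re (ILMN_3162860) at 7.92 in B6 GMA-SS replicate 3, against 7.81 to 7.83.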

How the results depend on the processing

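With the beadchip as a replicate block 16 members differed between strains in sham lungs at 4 weeks, against 9 without it, and the other counts stayed within 1.5 times. Scaling to the median left 7 calls in exposed lungs at 4 weeks and 7 in sham lungs at 16 weeks. It turned the sign at 16 weeks in sham lungs of Il12a (-0.05), Il17rc ILMN_2695344 (-0.15), Il18bp (-0.06) and Il1rap ILMN_1243228 (-0.57), and in exposed lungs of Il17rd ILMN_2649520 (-0.04) and Il17re ILMN_3162860 (-0.04). Its shift of the median of all probes was -0.15 for sham lungs at 16 weeks, -0.12 for the strain gap between times and 0.12 for the strain difference of the GMA-MS effect at 16 weeks. The cause was not tested.

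Leaving out 1 array gave 7 to 10 calls in sham lungs and 12 to 14 in exposed lungs at 4 weeks, and 9 to 11 and 15 to 18 at 16 weeks. The shares of all probes called in these fits are not given, so the ranges describe the members only. The fume effects, GMA-SS against GMA-MS, the differences of fume effects between strains and that of the strain gap between times gave 0 calls under every alternative and without any 1 array. Without A/J GMA-SS replicate 3 the GMA-SS minus GMA-MS value of Il18bp in A/J at 16 weeks was -0.03 (adjusted p 1), and 0.36 was the highest value without 1 array. Of 767 other fits of 78 named values 729 kept direction and side of the threshold, 31 were no longer past it and 6 turned. Of 872 fits without 1 array 814 kept both, 56 were no longer past it and 1 turned. Named values not called in the main fit count as kept while they stay uncalled with the same sign. These totals therefore do not measure how stable the calls are.

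Dim members limit what can be read: 10 of 33 member probes at 4 weeks and 10 of 35 at 16 weeks were not detected on every array, and the number of arrays, 4 a group, limits the precision of all. Genes with no member probe are not shown to be without transcript.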
